A study of Mus musculus with 6 samples.

Results

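The nuclear subunits of oxidative phosphorylation were 87 genes of the 27179 in the count table. They were chosen by a rule on their symbols, as the genes beginning with Ndufa, Ndufb, Ndufc, Ndufs, Ndufv, Sdha to Sdhd, Uqcr, Cox4 to Cox8 or Atp5, without the assembly factors (Ndufaf) and without the genes that carry -ps in the symbol or that RefSeq lists as pseudogenes. The RefSeq class left out Ndufa11b (172 to 247 counts per library) and Ndufs6b (421 to 666), which have no -ps, and kept Ndufb4c, which GENCODE lists as a processed pseudogene. With these choices 40 belonged to complex I, 4 to complex II, 8 to complex III, 18 to complex IV and 17 to complex V. Ndufa4 and Ndufa4l2 are counted under complex I by their symbols, although Ndufa4 is known as a subunit of complex IV. The RNA-seq data comprised 6 libraries of C57BL/6 mouse GC B cells, the B cells of the germinal center. Antigen-binding (NP+) IgG1+ B220+ splenic cells without CD138, IgM, IgD, Gr1 or CD38 on their surface were sorted after immunization with NP-KLH in alum, with 1 WT and 1 Il21r-/- library (labelled Il21r KO, for a knockout of the IL-21 receptor gene) on each of days 7, 10 and 14. The design text gives 1 mouse per library, whereas a legend of the study describes the cells of 3 mice per genotype on day 7, and the methods count more mice per genotype than there are libraries, from more than one immunization. The number of mice behind a library and the immunization it came from are therefore uncertain. The methods describe marrow chimeras for all work outside the BrdU/EdU time course, with WT or Il21r-/- donors and irradiated Ly5.1 hosts. In such hosts the cells that do not come from the marrow keep the receptor. Each genotype and day was represented by 1 library, and p-values measure the spread of these libraries around a linear effect of day, or around the mean of each day where day is a block.

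Oxidative phosphorylation takes electrons from NADH at complex I and from succinate at complex II, passes them through ubiquinone, complex III and cytochrome c to oxygen at complex IV, and uses the proton gradient made on the way to drive ATP synthesis at complex V. Most subunits are encoded in the nucleus, and a few core subunits of every complex except complex II are encoded by mitochondrial DNA. The latter were not analysed here. GC B cells are rapidly dividing cells, and mitochondrial respiration is known to be one of their sources of energy.

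Each library held 21353438 to 27435124 reads counted on genes. Il21r itself measured 346, 263 and 247 CPM in WT and 106, 128 and 113 CPM in Il21r-/- on days 7, 10 and 14, where CPM are counts per 1000000 counts of the TMM-scaled library, and was lower in Il21r-/- with a log2 fold change of 1.29 (SE 0.13, adjusted p = 0.00137). Il21r-/- libraries thus kept 2424 to 3349 counts of this gene, and gene totals do not show on which part of the transcript they fell. Positive log2 fold changes are higher in WT throughout. Transcripts that mark GC B cells were abundant in every library, with 9845 to 11934 CPM summed over 11 genes in WT and 10667 to 13576 CPM in Il21r-/-. The 8 T cell markers summed to 184 to 227 CPM in WT and 190.4 to 269.6 CPM in Il21r-/-, nearly all from Cd2 and Lck, while Cd3e and Cd8a had 0 to 2 counts per library. The 8 myeloid markers summed to 6.49, 2.48 and 6.56 CPM in WT and 8.77, 2.59 and 7.23 CPM in Il21r-/- on days 7, 10 and 14, with Mpo and Elane at 0 counts in every library. The 7 plasma cell markers summed to 2754 to 2935 CPM in WT and 3025 to 3839 CPM in Il21r-/-, most of it Jchain. Single plasma cell markers differed in direction. Of the 5 tested by edgeR's quasi-likelihood test, Prdm1 alone was above 0, at 1.65 (adjusted p = 0.0216). Xbp1 was called on the other side, at -0.39 (adjusted p = 0.0396). Sdc1, which was not tested, had 20, 21 and 18 counts in WT and 10, 13 and 9 in Il21r-/- on days 7, 10 and 14. The 8 markers of non-GC B cells summed to 744, 386 and 309 CPM in WT and 1201, 1119.5 and 739 CPM in Il21r-/- on days 7, 10 and 14, with 5 of them called higher in Il21r-/- and 4 called falling over the days. The erythroid markers summed to 12.9, 10.0 and 19.0 CPM in WT and 18.7, 4.80 and 33.6 CPM in Il21r-/- on days 7, 10 and 14, of which Hba-a2 was the most abundant, while Slc4a1 had 0 to 4 counts per library. The part of these cell type markers in the values below was not tested.

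The subunit genes together took 2.15, 2.16 and 2.36% of the counts in WT and 2.14, 1.96 and 2.40% in Il21r-/- on days 7, 10 and 14. Of the 87 genes, 79 passed the limit on low expression (an average log2 CPM of at least 0) and were tested, namely 38 of complex I, all 4 of complex II, 7 of complex III, 13 of complex IV and all 17 of complex V. Levels of different genes were compared as RPKM, the CPM per 1000 bases of the gene length given in the table. The median level of the tested genes was 162 RPKM in complex I, 120 in complex II, 293 in complex III, 410 in complex IV and 413 in complex V. Single genes spread more widely than the complexes did, from 2.60 RPKM for Sdhd to 1514 RPKM for Cox4i1.

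**Figure D1:**
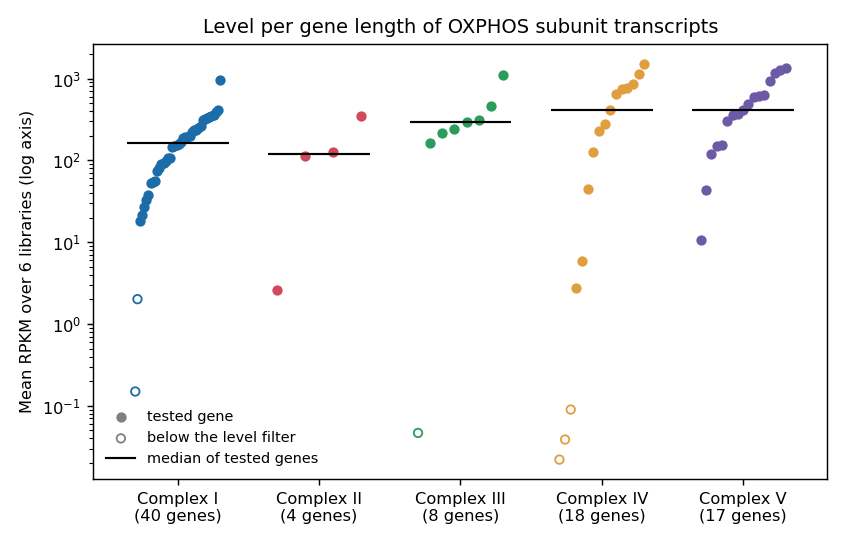
Mean level per gene length over the 6 libraries (RPKM, log axis) of each subunit gene by complex, with filled points for tested genes, open points for genes under the limit on low expression, and a line at the median of the tested genes. Cox7b2 and Cox8c, with 0 counts in every library, are not drawn, and the highest points are Cox4i1 in complex IV and Atp5e in complex V.

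In complex I, which oxidizes NADH, the highest levels were those of Ndufa4 at 947 ± 147 RPKM (mean ± SD, n = 6 libraries) and Ndufa2 at 407 ± 65.8 RPKM. The subunits that carry the electrons inside this complex stood lower. Ndufv1, which holds the flavin and binds NADH, was at 106 ± 6.19 RPKM, and Ndufs1, the largest iron-sulfur subunit, at 37.4 ± 2.62 RPKM. Ndufs7, which lies at the ubiquinone site, was at 108 ± 12.4 RPKM. Further core subunits were Ndufv2 at 165 ± 29.5 RPKM, Ndufs3 at 74.2 ± 5.73 RPKM and Ndufs8 at 261 ± 17.6 RPKM. In complex II, succinate dehydrogenase, the iron-sulfur subunit Sdhb was highest at 346 ± 35.6 RPKM, above the membrane anchor Sdhc at 127 ± 9.06 RPKM and the flavoprotein Sdha at 112 ± 10.4 RPKM. Sdhd, the other membrane anchor, stood far below its partners with 103, 66 and 91 counts in WT and 84, 77 and 68 counts in Il21r-/- on days 7, 10 and 14.

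In complex III, which passes electrons from ubiquinol to cytochrome c, the hinge subunit Uqcrh reached 1100.3 ± 219 RPKM and Uqcr10 464 ± 81.9 RPKM. The core proteins Uqcrc1 and Uqcrc2 were at 239 ± 14.97 RPKM and 308 ± 38.4 RPKM, and the Rieske iron-sulfur protein Uqcrfs1 at 214 ± 16.8 RPKM. In complex IV, cytochrome c oxidase, the highest were Cox4i1 at 1514 ± 214 RPKM and Cox6b1 at 1140.3 ± 157 RPKM. Cox5a and Cox5b, further subunits present in all tissues, were at 409.8 ± 33.6 RPKM and 228 ± 32.1 RPKM. In complex V, ATP synthase, the highest were Atp5e, the epsilon subunit, at 1355 ± 235 RPKM and Atp5b, the catalytic beta subunit, at 1269 ± 92.4 RPKM. The alpha subunit Atp5a1 was at 939 ± 43.7 RPKM and the gamma subunit Atp5c1, the rotating stalk, at 368 ± 35.0 RPKM. Neighbours in this order were not always further apart than their SD over the 6 libraries, as for Atp5e and Atp5b, and for Ndufv1 and Ndufs7.

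For subunits that exist as isoforms, 1 isoform carried nearly all of the counts. Cox4i1 was counted at 972, 896 and 1092 CPM in WT and 1096, 864 and 1249 CPM in Il21r-/- on days 7, 10 and 14, whereas Cox4i2, known as the isoform of lung and low oxygen, had 1, 3 and 0 counts in WT and 1, 5 and 0 counts in Il21r-/- on days 7, 10 and 14. Cox6a1 was counted at 488, 476 and 451 CPM in WT and 443, 389 and 489 CPM in Il21r-/- on days 7, 10 and 14, whereas Cox6a2, the isoform of heart and skeletal muscle, had 0 to 1 count per library. Cox8a measured 465, 396 and 422 CPM in WT and 430.0, 359 and 443 CPM in Il21r-/- on days 7, 10 and 14, against 0 to 1 count for Cox8b and 0 counts in every library for Cox8c. Cox7b2 also had 0 counts throughout, beside 274 ± 43.6 RPKM for Cox7b. A count of 0 allows up to 3 counts, or 0.11 to 0.14 CPM in these libraries, for counting error alone. The highest level of any of these minor isoforms in a library was 0.262 RPKM, for Cox4i2 in Il21r-/- on day 10, and no difference between genotypes was detectable at this depth.

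Other families kept a measurable second isoform. Cox6b2, the testis isoform, had 32, 51 and 35 counts in WT and 27, 55 and 42 counts in Il21r-/- on days 7, 10 and 14, a level of 2.72 ± 0.674 RPKM beside 1140.3 ± 157 RPKM for Cox6b1. Cox7a1, the isoform of heart and muscle, was at 5.88 ± 1.33 RPKM and Cox7a2 at 44.5 ± 6.90 RPKM. Of the 3 genes for the c subunit of the ATP synthase rotor, which encode the same mature protein, Atp5g3 was at 1181 ± 136 RPKM, Atp5g1 at 43.6 ± 4.97 RPKM and Atp5g2 at 10.5 ± 2.01 RPKM. Ndufa4 was at 947 ± 147 RPKM, and Ndufa4l2, known as a target of hypoxia signaling, had 1, 10 and 4 counts in WT and 0, 4 and 2 counts in Il21r-/- on days 7, 10 and 14.

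**Figure D2:**
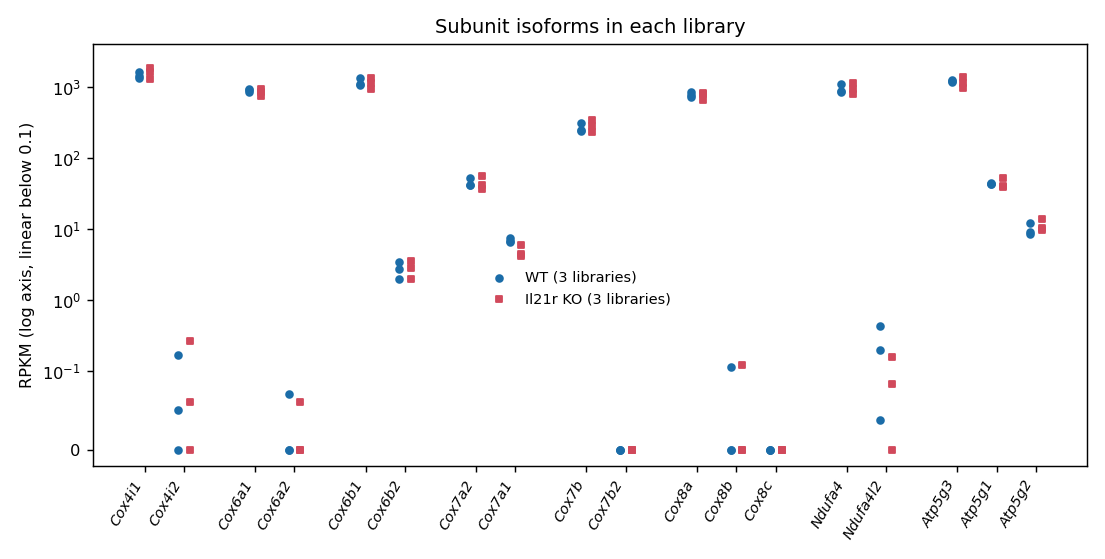
Level per gene length (RPKM, log axis that is linear below 0.1) of subunit isoforms in each of 3 WT libraries (circles) and 3 Il21r-/- libraries (squares). Cox4i2, Cox6a2, Cox7b2, Cox8b, Cox8c and Ndufa4l2 stay at or under 0.423 RPKM in every library, while Cox7a1 is the isoform whose WT points all lie above its Il21r-/- points.

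The promoters of abundant and of scarce or undetected isoforms were compared by their letters. RefSeq promoter windows of 300 bases (250 before to 50 after the start, build GRCm38.p6) were at hand for 70 of the 87 genes. They were searched on both strands for GCGCANGCG (NRF1), CCGGAAG (ETS factors such as GABPA), AAGATGGC (YY1) and AAGGTCA (ERRA), the letters bound by factors known to act on respiratory chain genes. Of 75 member windows, 28.0% held the NRF1 letters against 6.25% of all 32851 windows, 22.7% the ETS letters against 8.86%, 13.3% the YY1 letters against 2.75% and 10.7% the ERRA letters against 4.72%. Any of the 4 was found in 41 member windows (54.7%) and in 20.2% of all windows. These matches are a description and were not tested. The windows of the expressed Cox8a (chr19:7217567-7217866, minus strand) and Cox7a2 (chr9:79759804-79760103, minus strand) are printed with those of the isoforms Cox8b (chr7:140900397-140900696, minus strand) and Cox7a1 (chr7:30183921-30184220, plus strand), 5′ to 3′, with matches in capitals.
Cox8a: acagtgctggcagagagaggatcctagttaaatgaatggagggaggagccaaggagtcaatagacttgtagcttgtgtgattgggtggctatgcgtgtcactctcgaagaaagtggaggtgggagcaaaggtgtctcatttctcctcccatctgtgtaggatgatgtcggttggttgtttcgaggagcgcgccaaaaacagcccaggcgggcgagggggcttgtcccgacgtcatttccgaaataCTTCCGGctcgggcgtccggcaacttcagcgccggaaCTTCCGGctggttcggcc
Cox8b: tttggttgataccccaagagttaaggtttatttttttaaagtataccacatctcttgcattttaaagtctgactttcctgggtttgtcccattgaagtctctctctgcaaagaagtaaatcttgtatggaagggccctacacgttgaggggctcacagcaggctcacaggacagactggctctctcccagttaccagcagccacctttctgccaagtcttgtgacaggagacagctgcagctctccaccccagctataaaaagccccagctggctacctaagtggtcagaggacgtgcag
Cox7a2: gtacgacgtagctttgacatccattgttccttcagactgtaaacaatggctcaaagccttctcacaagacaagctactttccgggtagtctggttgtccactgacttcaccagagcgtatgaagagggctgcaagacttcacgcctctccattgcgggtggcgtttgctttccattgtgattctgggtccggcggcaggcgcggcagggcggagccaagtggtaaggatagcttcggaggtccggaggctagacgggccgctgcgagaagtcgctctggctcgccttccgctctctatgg
Cox7a1: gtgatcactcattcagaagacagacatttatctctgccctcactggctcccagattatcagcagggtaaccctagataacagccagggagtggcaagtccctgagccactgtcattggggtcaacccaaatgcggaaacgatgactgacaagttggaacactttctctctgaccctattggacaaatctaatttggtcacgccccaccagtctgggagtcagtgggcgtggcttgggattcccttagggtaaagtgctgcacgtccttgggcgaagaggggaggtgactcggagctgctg
Cox8a held the ETS letters at more than one place, and the other 3 windows held none of the 4 motifs, although Cox7a2 was expressed.

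Some subunit genes share sequence with other genes, and the study does not state how reads with several places were counted. Of the 85 genes matched to GENCODE transcripts, 32 shared at least 1 window of 100 bases, the read length, with a transcript of another gene, and 18 of these shared it with a gene elsewhere in the genome. The other 14 shared windows with overlapping neighbours alone. Among the 18, Atp5g2 shared 34.7% of its windows, beside 16.2% for Cox7c and 16.0% for Ndufb4. The 26.97% of Atp5o may include windows shared with its overlapping neighbour Donson. Ndufb4, which shared its windows with Ndufb4c, was counted at 21.3 ± 3.55 RPKM and Ndufb4c at 2.01 ± 0.792 RPKM. Ndufb4b, at 199 ± 36.1 RPKM, was not matched to a transcript, so its windows were not compared. In the same way Ndufs5 had 520 to 730 counts per library and the left-out Ndufs5-ps 1409 to 1805. How the reads of such pairs were divided is uncertain, and with it the levels of the 18 genes. Uqcr11 had 0 or 1 count per library and Sdhd 66 to 103, although no window of their transcripts was shared, and why they were low was not tested.

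The comparison of WT with Il21r-/- over the 3 days asks whether the loss of IL-21 receptor signaling altered the level of the subunits. In sum over all members the level was 21661, 20887 and 23558 CPM in WT and 22326, 19167 and 25215 CPM in Il21r-/- on days 7, 10 and 14, or 22036 ± 1374 CPM in WT and 22236 ± 3025 CPM in Il21r-/- (mean ± SD, n = 3 libraries). The 2 groups overlapped, and Il21r-/- held both the lowest and the highest library. In bulk samples fewer cells of a type and less RNA per cell cannot be told apart. None of the 79 tested genes was called by edgeR's quasi-likelihood test, whereas over all 11005 tested genes the calls came to 1.4% for higher in WT and 4.52% for the reverse. A single member, Cox7a1, passed an unadjusted p under 0.05, toward WT, against 8.31% of all tested genes toward WT and 13.1% toward Il21r-/-. DESeq2's Wald test called 0 members as well, against 318 of the 11005 genes toward WT and 633 toward Il21r-/-. By that test 0 members had an unadjusted p under 0.05, against 19.3% of all tested genes. The log2 fold changes ran from -0.25 to 0.54 with a median of -0.030, beside -0.0098 for all tested genes, and 31 were above 0. The 95% interval of the log2 fold change lay within 0.5 of 0 on either side for 69 members and within 1 for 78.

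The largest difference was that of Cox7a1, with 2.42, 2.48 and 2.72 CPM in WT and 1.53, 1.60 and 2.17 CPM in Il21r-/- on days 7, 10 and 14. All 3 WT libraries were above all 3 Il21r-/- libraries, and the log2 fold change was 0.54 (SE 0.21, adjusted p = 0.185), from 66, 61 and 58 counts in WT and 35, 42 and 54 counts in Il21r-/-. The same separation was seen for Atp5b, Ndufa10 and Ndufv1, so 4 of 79 members had all WT libraries on top (5.06%, against 8.33% of all tested genes) and 0 the reverse (against 10% of all tested genes). Atp5b was counted at 2469, 2469.6 and 2591 CPM in WT and 2274, 2100.3 and 2407 CPM in Il21r-/- on days 7, 10 and 14, a log2 fold change of 0.15 (SE 0.11, adjusted p = 0.481). On the other side Ndufa3, an accessory subunit of complex I, measured 126, 112 and 139 CPM in WT and 148, 125 and 178 CPM in Il21r-/- on days 7, 10 and 14, and Il21r-/- was higher on each day. Cox7a2l measured 836, 679 and 823 CPM in WT and 1016, 760.4 and 999 CPM in Il21r-/- on days 7, 10 and 14. Uqcrh measured 519, 471 and 663 CPM in WT and 672, 506 and 774 CPM in Il21r-/- on days 7, 10 and 14. For both, Il21r-/- was again higher on each day while the groups overlapped across days. Their log2 fold changes were -0.25 (SE 0.13, adjusted p = 0.302) for Ndufa3, -0.25 (SE 0.15, adjusted p = 0.380) for Cox7a2l and -0.24 (SE 0.16, adjusted p = 0.422) for Uqcrh by the same test.

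With day as a block, which compares the libraries of the same day, these 3 genes were called higher in Il21r-/-, with adjusted p-values of 0.0229, 0.0161 and 0.0232 in edgeR. No member was called higher in WT. Over all tested genes that fit called 13.6% in the direction of Il21r-/- and 9.33% in the direction of WT. The 3 of 79 members are thus a smaller share than that of all genes. WT was above Il21r-/- on each of the 3 days for 10 members (12.7%) and below on each day for another 10 (12.7%), against 25.4% and 27.9% of all tested genes. Leaving out the Il21r-/- library of day 10 gave 5 members called higher in Il21r-/- (Ndufb10, Cox7a2l, Ndufb4b, Uqcrh and Ndufa3), against 10.6% of all genes tested then. An offset for gene length, fitted per library, gave 2 members called higher in WT (Uqcr10 at 0.26 and Uqcrq at 0.27, against 4.73% of all genes) and moved the median of the members to 0.068 with 58 above 0. With both the block and the offset, 10 members were called higher in WT (against 12.5%) and Cox7a2l higher in Il21r-/- (against 14.3%). The direction of the members as a group therefore changed with the length offset. It also changed with single libraries, as the median was 0.077 without Il21r-/- of day 7 (64 of 80 above 0), 0.077 without Il21r-/- of day 14 (62 of 79) and 0.014 without WT of day 10 (48 of 80). Ndufa3, Cox7a2l, Uqcrh, Cox7a1, Atp5b, Uqcr10 and Uqcrq each kept their direction in every fit over the 3 days that was run. They were picked for their effects or calls in these same libraries, so a kept direction is no separate support. Their sizes did not hold, since Uqcrq came to 0.0067 and Uqcr10 to 0.013 without Il21r-/- of day 10, and Uqcrh to -0.055 without Il21r-/- of day 7. With the block and the offset Ndufa3 was at -0.12 (adjusted p = 0.187) and Uqcrh at -0.13 (adjusted p = 0.133), so that both lost their call.

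The promoter windows of the 3 genes called with the day block are printed for Ndufa3 (chr7:3617123-3617422, plus strand), Uqcrh (chr4:116075021-116075320, minus strand) and Cox7a2l (chr17:83514284-83514583, minus strand), with matches to the 4 motifs in capitals.
Ndufa3: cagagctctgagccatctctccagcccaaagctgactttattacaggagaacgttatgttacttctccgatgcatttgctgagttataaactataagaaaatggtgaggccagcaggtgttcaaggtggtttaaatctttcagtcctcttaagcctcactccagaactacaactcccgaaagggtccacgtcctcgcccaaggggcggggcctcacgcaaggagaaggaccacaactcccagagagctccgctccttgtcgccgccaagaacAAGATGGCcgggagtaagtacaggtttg
Uqcrh: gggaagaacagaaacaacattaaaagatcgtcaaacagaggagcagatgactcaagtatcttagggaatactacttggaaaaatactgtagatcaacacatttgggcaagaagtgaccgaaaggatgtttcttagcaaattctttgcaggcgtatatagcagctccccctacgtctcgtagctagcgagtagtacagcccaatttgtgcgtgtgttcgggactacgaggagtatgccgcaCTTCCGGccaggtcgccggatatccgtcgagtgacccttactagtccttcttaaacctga
Cox7a2l: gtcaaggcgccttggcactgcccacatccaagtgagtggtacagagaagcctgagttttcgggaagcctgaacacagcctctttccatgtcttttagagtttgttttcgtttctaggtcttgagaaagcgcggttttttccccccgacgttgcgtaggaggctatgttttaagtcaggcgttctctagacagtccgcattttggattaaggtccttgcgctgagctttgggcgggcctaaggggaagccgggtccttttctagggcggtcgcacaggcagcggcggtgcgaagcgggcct
Ndufa3 held the YY1 letters and Uqcrh the ETS letters, and the window of Cox7a2l held none of the 4.

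By complex, the median log2 fold change over the 3 days was -0.035 in complex I (12 of 38 above 0), 0.12 in complex II (3 of 4), -0.029 in complex III (3 of 7), -0.027 in complex IV (6 of 13) and -0.011 in complex V (7 of 17). Complex II summed to 868, 850.1 and 895 CPM in WT and 813, 795 and 849 CPM in Il21r-/- on days 7, 10 and 14, so that every WT library was above every Il21r-/- library, although the lowest of WT and the highest of Il21r-/- nearly met. Its flavoprotein Sdha measured 354, 321 and 327 CPM in WT and 305, 340.0 and 269 CPM in Il21r-/- on days 7, 10 and 14, with a log2 fold change of 0.13 (SE 0.11, adjusted p = 0.513). WT was higher for Sdha on days 7 and 14 and lower on day 10. Sdhd, from the few counts given above, had the largest log2 fold change of the complex at 0.20 (SE 0.24, adjusted p = 0.677). The extremes of complex I were Ndufab1, the acyl carrier protein, at 0.24 (SE 0.14, adjusted p = 0.373) and Ndufa3 at -0.25, with Ndufb10 next to it at -0.20 (SE 0.13, adjusted p = 0.417). No complex had a called member in the main test.

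**Figure D3:**
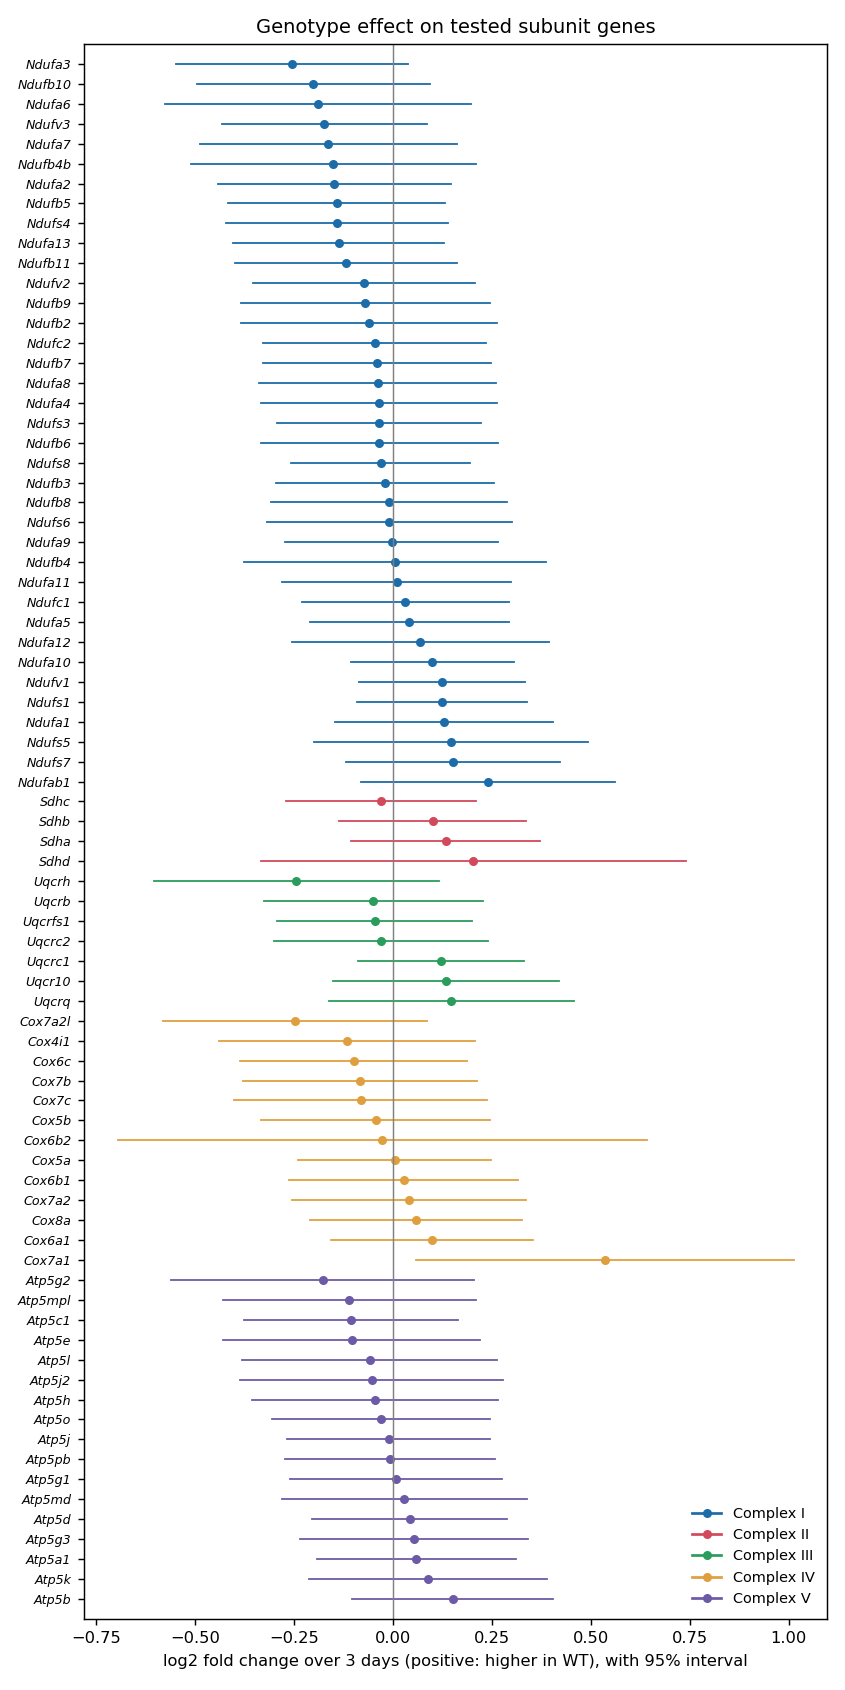
Log2 fold change of WT against Il21r-/- over 3 days (x axis, positive for higher in WT) for the tested subunit genes reported singly, ordered within their complex, with 95% intervals from the quasi-likelihood fit. The interval of Cox7a1 is the 1 that lies above 0, and no gene passed the adjusted p-value of 0.05.

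Day by day, the likelihood ratio test of edgeR called 0 members in either direction for each of days 7, 10 and 14, and 0 passed an unadjusted p under 0.05 on any of these days, against 5.51, 10.8 and 12.1% of all tested genes in either direction. The same test called 0.2% of all genes toward WT and 0.872% toward Il21r-/- for day 7. The shares were 0.5% and 2.6% for day 10 and 0.727% and 2.55% for day 14. The median log2 fold change of the members was -0.047 on day 7 (30 of 79 above 0), 0.13 on day 10 (66 of 79) and -0.14 on day 14 (14 of 79), so in this fit the side on which most members fell changed between days. Keeping the linear day term in these fits moved the medians to 0.051, -0.10 and -0.049, which turned the direction on days 7 and 10. With the gene length offset the medians were 0.068, 0.091 and 0.030, with 54, 62 and 52 of 79 members above 0. The offset thus turned the direction on days 7 and 14, and most members lay above 0 on each day. A test of whether the 2 genotypes changed differently with day called 0 members and 0 of all tested genes by the quasi-likelihood test, with 0 members and 118 genes at an unadjusted p under 0.05, and DESeq2's Wald test called 0 members too.

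Across the days, both genotypes had their highest subunit level on day 14. Complex I summed to 5170.3, 5018 and 5854 CPM in WT and 5512, 4685 and 6522 CPM in Il21r-/- on days 7, 10 and 14, and complex V to 9115, 8906 and 9638 CPM and 9026, 7937 and 9965 CPM. In both complexes each day 14 library was above the other 4 libraries, and the lowest was Il21r-/- on day 10. Complexes III and IV followed the same order at the extremes. Single genes showed this too, since 49 of the 79 members (62.0%) had both day 14 libraries above the other 4, against 13.9% of all tested genes, and 0 members had both below, against 14.4%. These were 25 genes of complex I, 1 of complex II, 4 of complex III, 6 of complex IV and 13 of complex V. Both day 10 libraries were below the other 4 for 42 members (53.2%), against 8.66% of all tested genes. Among genes under 1000 bases this held for 57.1% of the members and 26.3% of all tested genes, and among longer ones for 43.5% and 6.59%. The sums of the erythroid and myeloid markers, given above, were also lowest in both day 10 libraries, as was the sum of the assembly factors given below.

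**Figure D4:**
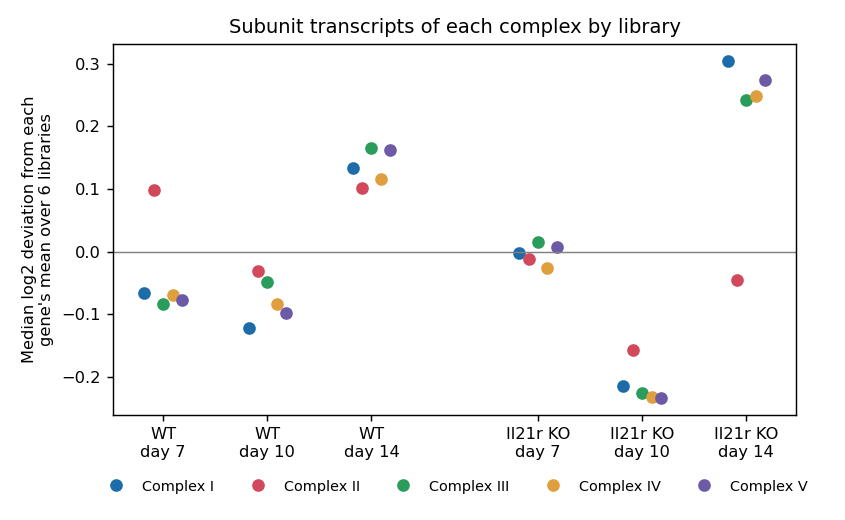
Median log2 deviation of the tested genes of each complex from each gene's own mean over the 6 libraries (y axis), by library. Complexes I, III, IV and V lie above 0 in both day 14 libraries, by 0.12 to 0.17 in WT and 0.24 to 0.30 in Il21r-/-, and are lowest in Il21r-/- on day 10, while complex II does not follow them in Il21r-/- on day 14.

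In the linear trend over both genotypes 70 of the 79 members were above 0 from day 7 to day 14, with a median log2 change of 0.27 beside 0.0042 for all tested genes. No member was called, while 1.07% of all tested genes were called rising and 3.36% falling, and 16 members passed an unadjusted p under 0.05, each of them upward, against 10% of all tested genes upward and 23.5% in either direction. The markers of non-GC B cells, given above, fell over the same days, with a median log2 change of -0.92 and 4 of 8 called. The erythroid markers had a median log2 change of 0.96, with 3 of 3 tested above 0 and 0 called, and their sum was highest in both day 14 libraries and lowest in Il21r-/- on day 10, as for the subunits. The assembly factors and mobile electron carriers, listed below, had the same order. On days 7, 10 and 14 the assembly factors summed to 2014, 1932 and 2156 CPM in WT and 2127, 1888 and 2344 CPM in Il21r-/-. The carriers summed to 571, 570 and 635 CPM in WT and 556, 497 and 617 CPM in Il21r-/-. The part of any of these lists in the trend was not tested. DESeq2's Wald test also called 0 members, where it called 284 of the 11005 tested genes rising. The likelihood ratio test of edgeR called 1 member, Ndufa12, where it called 405 of the 11005 genes rising. The largest was Ndufa12, an accessory subunit of complex I, with 15.4, 18.7 and 22.3 CPM in WT and 15.8, 14.4 and 23.9 CPM in Il21r-/- on days 7, 10 and 14, which gave a log2 change of 0.59 (SE 0.17, adjusted p = 0.0890) by the quasi-likelihood test. Both day 14 libraries were its highest. Ndufab1 followed with 0.53 (SE 0.17, adjusted p = 0.114), Ndufv2, the iron-sulfur partner of Ndufv1, with 0.44 (SE 0.15, adjusted p = 0.119), Ndufa7 with 0.42 (SE 0.17, adjusted p = 0.176) and Ndufa5 with 0.42 (SE 0.14, adjusted p = 0.109). Outside complex I the largest were Atp5g2 at 0.45, Uqcr10 at 0.41 and Cox7c at 0.41. The 9 members below 0 were Ndufs1, Ndufs3, Ndufv1, Sdha, Sdhd, Uqcrc1, Cox8a, Atp5a1 and Atp5d, from -0.19 for Atp5d to -0.012 for Ndufv1. Of these, 7 are on the list of 20 catalytic or core subunits, which had a median change of 0.075 with 13 above 0. The members of 1000 bases or more, whatever their role, had a median of 0.076. The part of gene length in this contrast was not tested.

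The number of calls in this trend rested on the Il21r-/- library of day 10. Without it 19 members were called rising, among them Ndufa12 (adjusted p = 0.0103), Ndufv2 (adjusted p = 0.0154) and Uqcr10 (adjusted p = 0.0185), when 8.3% of all genes tested were called rising. That library had the lowest subunit level and a share of counts on subunits of 1.96%. It also had the lowest sums, given above, of erythroid markers, assembly factors and mobile electron carriers. Leaving out any other library gave 0 called members, and leaving out WT on day 7 gave 0 called genes at all.

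The day trend moved with gene length. The 56 tested members under 1000 bases had a median change of 0.31 with 53 above 0, and the 23 members of 1000 bases or more 0.076 with 17 above 0. All tested genes showed the same order, with a median of 0.24 and 76.9% above 0 among the 1155 genes under 1000 bases, and -0.019 and 47.4% among the 9850 longer ones. Both day 14 libraries were above the other 4 for 41 of the 56 shorter members (73.2%) and for 41.1% of all shorter genes, and for 8 of the 23 longer members (34.8%) and for 10.7% of all longer genes. With the gene length offset the median of the members fell to 0.041 with 53 above 0, and Ndufa12 to 0.34, Ndufab1 to 0.33 and Ndufv2 to 0.38. A difference in the libraries by length and a change of short genes in the cells cannot be told apart with 1 library per genotype and day.

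**Figure D5:**
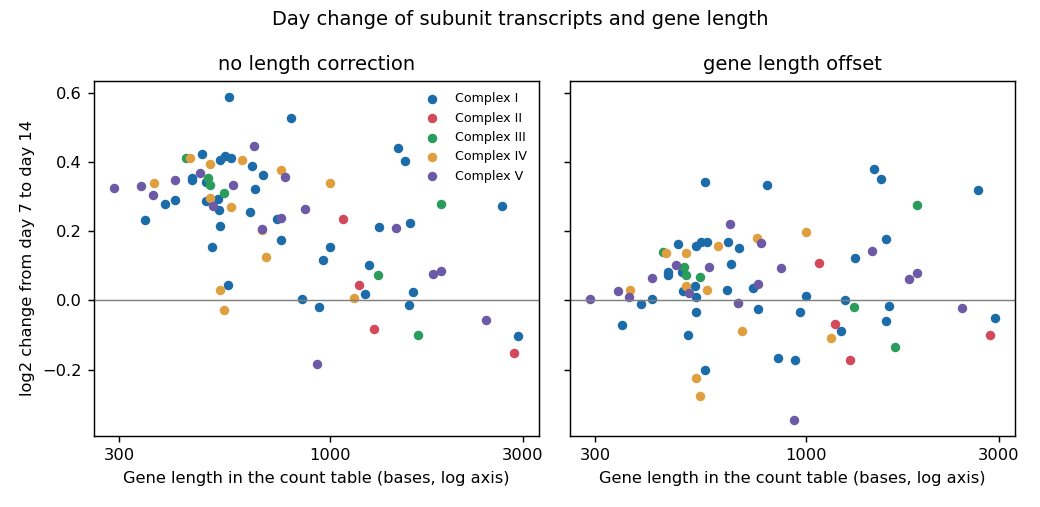
Log2 change from day 7 to day 14 over both genotypes (y axis) against gene length in bases (log axis) for the 79 tested subunit genes, without a correction for length (left) and with a gene length offset per library (right). On the left most genes under 1000 bases lie between 0.2 and 0.45, and on the right they lie around 0.

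Of the genes that serve these complexes, 47 of 49 listed assembly factors were tested and 0 were called between genotypes, with a median of -0.011. With the day block Surf1, which helps to build complex IV, at -0.35 (SE 0.090, adjusted p = 0.00425), and Sdhaf4, which helps to build complex II, at -0.33 (SE 0.11, adjusted p = 0.0225), were called higher in Il21r-/-, or 2 of 47 where 13.6% of all genes were called in that direction. From day 7 to day 14 the assembly factors had a median change of 0.19 with 40 of 47 above 0 and 0 called. Of 18 genes of the tricarboxylic acid cycle, which supplies the NADH and succinate, and of the pyruvate dehydrogenase complex that feeds it (Pdha1, Pdhb, Pdhx and Dlat), 1 was called higher in WT and 0 lower, against 1.4% and 4.52% of all tested genes. This was Idh2, the mitochondrial isocitrate dehydrogenase, with 77.4, 105 and 127 CPM in WT and 63.9, 72.1 and 81.9 CPM in Il21r-/- on days 7, 10 and 14 and a log2 fold change of 0.49 (SE 0.10, adjusted p = 0.0309). WT was higher on each day. The list had 15 of 18 genes above 0, against 48.2% of all tested genes, and a median of 0.10.

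The list of mobile electron carriers held 15 genes, namely those of ubiquinone synthesis and handling, Cycs for cytochrome c, and Cyc1 for cytochrome c1, a catalytic subunit of complex III that the rule on symbols does not reach. Coq8a was called higher in Il21r-/- and 0 were called higher in WT, against 4.52% and 1.4% of all tested genes. Coq8a, a regulator of ubiquinone synthesis, measured 26.1, 17.6 and 17.1 CPM in WT and 34.0, 34.5 and 33.8 CPM in Il21r-/- on days 7, 10 and 14, a log2 fold change of -0.77 (SE 0.15, adjusted p = 0.0205). With the day block Coq4, a further gene of ubiquinone synthesis, was called higher in WT at 0.46 (SE 0.13, adjusted p = 0.00885), where 9.33% of all genes were called. Cycs, cytochrome c itself, was at 0.21 (SE 0.13, adjusted p = 0.388). Of 17 tested regulators of mitochondrial biogenesis 0 were called between genotypes, with a median of 0.025. With the day block 2 of them were called higher in WT, namely Gabpa, which binds the ETS letters, at 0.23 (SE 0.083, adjusted p = 0.0445) and Polrmt, the mitochondrial RNA polymerase, at 0.29 (SE 0.10, adjusted p = 0.0460). Tfam, which packages mitochondrial DNA and starts its transcription, measured 148, 141 and 161 CPM in WT and 149, 136 and 157 CPM in Il21r-/- on days 7, 10 and 14. Ppargc1a, a coactivator known from muscle and brown fat, had a mean of 0.039 CPM. The Il21r-/- group had more transcripts of non-GC B cells, as given above, and the part of these in Idh2 and Coq8a was not tested. The sort left out cells with CD38 or IgD on the surface, and the transcripts of both, Cd38 at -0.36 (adjusted p = 0.448) and Ighd at -0.13 (adjusted p = 0.840), were not among the 5 called between genotypes. Cd38 was called falling over the days by the quasi-likelihood test, with a log2 change of -3.07 (SE 0.31, adjusted p = 0.00465). It measured 26.6, 5.98 and 2.29 CPM in WT and 21.3, 11.7 and 3.65 CPM in Il21r-/- on days 7, 10 and 14. Ighd was not called, at -0.32 (adjusted p = 0.620).

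The 3 members whose level followed the sum of all members most closely over the 6 libraries were Ndufb3 (Pearson r = 0.991), Atp5h (r = 0.989) and Atp5j2 (r = 0.988), as a description over libraries that share their depth, and with each gene part of that sum.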

How the data were processed

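Per the labels and the methods of the study, single-end 100 base reads of TruSeq libraries (CASAVA 1.8.2) were aligned to mm10 with Rsubread, assigned by featureCounts to its inbuilt RefSeq genes after technical replicates were pooled, and deposited by the authors as whole-number counts per gene without normalization, with a gene length column. Strand and multi-mapping settings are not given in the sources used here. Symbols came from RefSeq for 25275 identifiers and from GENCODE for 17, and 1887 had none.

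The tests left out genes with an average log2 CPM under 0, Xist, the Ig variable genes and those of the Y chromosome, and used TMM factors (R 4.3.3, edgeR 4.0.16, limma 3.58.1). Dispersions were estimated robustly on an additive model of genotype and linear day, with 3 residual degrees of freedom and a common dispersion of 0.0170. The genotype effect over 3 days, the day trend (given as the change from day 7 to day 14) and their interaction came from edgeR's quasi-likelihood test, and the genotype effect on a day with its likelihood ratio test on a mean per day. P-values were adjusted by Benjamini-Hochberg over 11005 genes, with 0.05 as threshold, and standard errors come from the fitted model. The tests were also run on simulated counts, and the outcome is not reported here. Intervals and floors cover counting error or library spread only, because PCR copies could not be told from separate molecules.

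The day pairs the libraries. After each genotype's mean was subtracted, the log2 levels of the libraries of a day correlated over 11005 genes (r = 0.640 for day 7, 0.413 for day 10, 0.645 for day 14). The members and gene lists were chosen with earlier results of these data known. Genes named singly were catalytic subunits and isoforms, those with the highest level or the largest genotype effect in each complex, those called in a test, and those with at most 3 counts. Single values of 1 subunit and 1 marker gene are not reported here. Other genes were named from the lists where called, with Cycs, Tfam and Ppargc1a as examples. Genes of the day trend were named by size after their values were seen. Shared windows were exact matches of 100 bases among GENCODE M21 transcripts on either strand. The alternatives were DESeq2's size factors and Wald test (DESeq2 1.42.0), other limits on low counts, the left-out genes kept, a likelihood ratio test, a gene length offset (lowess per library), day as a block, other day-wise fits, and leaving out each library in turn.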

Additional observations from a re-analysis of the deposited data

How the results depend on the processing

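No member was called between genotypes with DESeq2's size factors or Wald test, with a minimum of 10 counts, with all genes with any count, with the left-out genes kept, or by the likelihood ratio test. Over all genes tested, these fits called 138 to 356 higher in WT and 426 to 837 higher in Il21r-/-. Members called higher in WT numbered 2 with the gene length offset and 10 with the day block (pairing the libraries of a day) and the offset together, and members called higher in Il21r-/- numbered 3 with the day block and 1 with the block and the offset. Leaving out each library in turn gave 0 to 5 members called higher in Il21r-/-, the 5 without the day 10 library of that genotype, and a median genotype effect of -0.13 to 0.077. With the block, no member was called for the difference in day trend or for a single day. Of the 11005 tested genes, the former fit called 11 as rising more in WT and 20 as rising more in Il21r-/-. The single-day fits called 83 genes toward WT and 220 toward Il21r-/- for day 7. These were 201 and 621 for day 10, and 386 and 669 for day 14. The day trend itself cannot be fitted with the block. For the trend over days, the likelihood ratio test called 1 member rising, where it called 405 of the 11005 tested genes rising. Leaving out 1 library gave 0 to 19 members called rising (19 without Il21r-/- of day 10), and the median change was 0.11 to 0.37 over these. It was 0.041 with the gene length offset, and 0.076 over the members of 1000 bases or more, a split chosen after seeing the data. Over the 46 tested members without a shared window, also chosen later, the median change was 0.27, and the median genotype effect -0.015. For single days, the median genotype effect of all tested members turned to 0.051 on day 7 and to -0.10 on day 10 with the linear day term. With the gene length offset it turned to 0.068 on day 7 and to 0.030 on day 14. The median difference in day trend between genotypes ran from -0.71 (without Il21r-/- of day 7) to 0.80 (without Il21r-/- of day 14) when a library was left out, which leaves 1 residual degree of freedom. With 1 library per genotype and day, p-values cover the spread of these libraries only. The counts limit Cox7a1, Cox6b2 and Sdhd, which had 27 to 103 counts per library, and the isoforms at or near 0.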
